A study of Mus musculus with 58 samples.

Results

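Gene expression in the retina of diabetic mice was compared between 2 times of the early night, ZT13 and ZT17, where ZT counts the hours after lights on and the lights went off at ZT12. The comparison was defined by genotype and time alone, and it took the 4 libraries of diabetic retinas at ZT17 and the 4 at ZT13, which are 8 of the 58 libraries of the series. The diabetic mice were male heterozygous Ins2Akita animals on a C57BL/6 background, 4 months old, in which a mutant insulin 2 gene makes misfolded insulin, kills pancreatic beta cells and leads to hyperglycemia. The controls were wild-type male littermates, of the same age and light cycle, with 5 libraries at each of these 2 times, and they entered as the reference for what the same 4 hours did without diabetes. All mice were housed from birth in equal spans of light and dark with free access to food. They were perfused with phosphate-buffered saline before dissection, and at night every step was done under dim red light. Each library held the ribosomal RNA-depleted total RNA of an individual retina. Which retinas came from the same mouse is not given in the sources used here. The p-values therefore measure the spread between libraries, estimated from all 58 unless said otherwise. The model has limits, since the insulin mutation is present from birth and in all cells, and whole retina mixes all its cell types, so that more cells of a type and more RNA per cell cannot be told apart.

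The retina holds its own circadian clock, a loop in which the activators Clock and Arntl (Bmal1) drive the repressors of the Period and Cryptochrome families. Dopamine, released by day, acts on photoreceptors through cyclic AMP. After lights off, rods recover from bleaching, open their cyclic nucleotide-gated channels and carry the dark current, which makes the early night the time of the highest energy demand of these cells. Chaperones of the cytosol and of the endoplasmic reticulum fold the opsins and channels that are made in large amounts for the daily renewal of outer segments.

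The libraries at ZT17 were deeper, with 18193309 to 20301393 counted reads against 11335814 to 17782291 at ZT13. Markers of rods (summed level 33485 to 44191 CPM, reads scaled to a common library size, over the 8 libraries), cones, bipolar, amacrine and ganglion cells and Muller glia were present in every library, so the tissue was retina as labelled. Some libraries stood apart. Replicate 3 at ZT17 had a rise of 0.42 log2 units in level per 10 percentage points of transcript GC content, where the other 7 lay between -0.18 and 0.10, and 8.04% of its reads were in structural RNAs against 4.88% to 5.14% in the other 3 of its group. It had 0.79% of its reads in mitochondrial transcripts, where the other 3 had 1.40% to 2.04%. Replicate 5 at ZT13 had 11.6% of its reads in structural RNAs and 0.70% in mitochondrial transcripts, where the other 3 of that group had 3.77% to 5.38% and 1.49% to 2.06%. The lens markers summed to 68.4 CPM in replicate 4 at ZT13 and to at most 8.88 in the other 7, and 3 of the 18 (Cryge, Crygf and Lim2) were at 0 in all 8. Pigment epithelium markers summed to 169 to 408 CPM at ZT13 and to 107 to 211 at ZT17, blood markers to 0.68 to 9.79 and 0.11 to 0.67, with Slc4a1 and S100a8 at 0, and none of the pigment epithelium, lens, blood, cornea or muscle markers tested passed the test. Replicate 5 at ZT13 had the highest sums of the 8 libraries for pigment epithelium and blood. So it had for muscle and sclera (36.3 CPM, next 16.5) and for cornea and ciliary body (30.6 CPM, next 27.9). The part of the structural RNA, lens, pigment epithelium, blood, muscle and cornea values in the results below was not tested beyond the fits that leave libraries out. The GC trend was also removed in 1 fit.

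In diabetic retinas 362 of 18814 genes tested changed between ZT13 and ZT17, 1.92% of the genes, with 201 higher (1.07%) and 161 lower (0.856%) at ZT17 at an adjusted p under 0.05 in edgeR's quasi-likelihood test with Benjamini-Hochberg adjustment. The changes were small, with a median log2 fold change of 0.37 for the genes that rose and -0.49 for those that fell, and 2 genes rose and 17 fell by more than 2-fold. For 277 of the 362 the 4 libraries of one time did not overlap with the 4 of the other, as was so for 6.31% of all genes tested. This test took its estimate of the spread from all 58 libraries. With the 8 libraries alone no gene passed (smallest adjusted p = 0.157, 1998 genes at an unadjusted p under 0.05). The 362 genes all had the same direction and an unadjusted p under 0.05 in that fit. It uses the same libraries that gave the calls, so this adds no separate support. Leaving out 1 library gave 111 to 610 genes, with 111 without replicate 5 at ZT17, 144 without replicate 3 at ZT17, 147 without replicate 3 at ZT13, 209 without replicate 5 at ZT13 and 610 without replicate 1 at ZT17, and 70 of the 362 passed in each of these 8 fits. All 362 kept their direction in each of them, which was all but fixed in advance for the 277 without overlap. With replicate 5 at ZT13 and replicate 3 at ZT17 left out together, a choice made after seeing the data, 38 genes passed. DESeq2 called 280 genes higher and 221 lower. The balance of directions depended on the scaling, with 147 higher and 211 lower under upper-quartile factors.

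**Figure D1:**
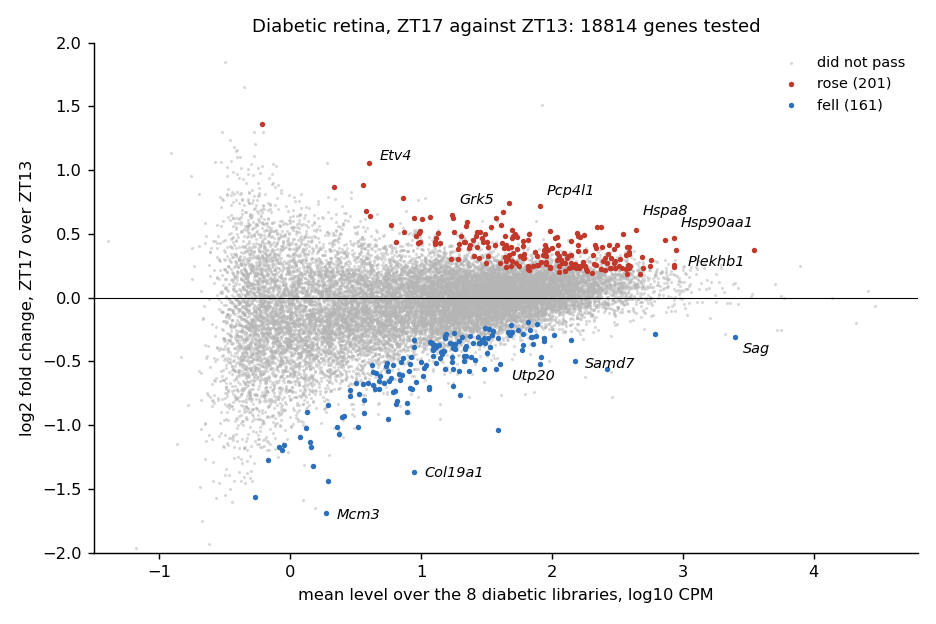
Log2 fold change between ZT17 and ZT13 in diabetic retinas (vertical axis) against the mean level over the 8 libraries in log10 CPM (horizontal axis), 1 point per gene tested, with the 201 genes that rose in red and the 161 that fell in blue. The genes that rose lie mostly at high levels and within 2-fold, and the large decreases, such as Mcm3 and Col19a1, at low levels. 14 genes beyond 2 log2 units, none of which passed, are not drawn.

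The genes that rose were more abundant than the typical gene, with a median level of 86.5 CPM against 13.1 over all genes tested, while those that fell had a median of 14.0 CPM. Protein-coding genes made up 99.0% of the annotated genes that rose and 89.7% of those that fell, against 78.2% of all tested. The median GC content of the longest transcript was 50.1% in genes that rose, 47.6% in genes that fell and 49.0% over all tested, and its median length was 3795, 3557 and 3055 bases. Beside these values stands the GC trend of the libraries, whose mean was 0.11 ± 0.21 (SD, n = 4) log2 units per 10 percentage points at ZT17 and -0.015 ± 0.12 at ZT13. With each library's trends over GC content and length removed, 779 genes passed, 336 higher and 443 lower, among them 337 of the 362.

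Dip2b, a gene of the disco-interacting protein 2 family, had the smallest p of all genes. Its level was 128, 123, 130 and 150 CPM in replicates 1, 3, 4 and 5 at ZT13, and 159, 201, 185 and 198 CPM in the same-numbered replicates at ZT17. Every library at ZT17 lay above every library at ZT13, and the log2 fold change was 0.49 (SE 0.06, adjusted p = 7.74e-07). Dip2b is on chromosome 15 (100038664 to 100219473, plus strand, GRCm38). The fold change in control retinas was close to it, 0.48 (SE 0.05), from other libraries.

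Both genes of the high-affinity cyclic AMP phosphodiesterase PDE8, which lowers cyclic AMP, were higher at ZT17. Pde8b was at 124, 155, 151 and 150 CPM at ZT13 and at 170, 202, 220 and 225 CPM at ZT17, with no overlap, and rose by a log2 fold change of 0.49 (SE 0.07, adjusted p = 6.13e-06). Pde8a was at 84.5, 87.7, 102 and 106 CPM at ZT13 and at 104, 126, 140 and 138 CPM at ZT17. Its lowest library at ZT17 lay below the highest at ZT13, and the log2 fold change was 0.42 (SE 0.09, adjusted p = 0.00543). In the list of dopamine and cyclic AMP genes 2 of 28 tested rose and 1 fell, where 1.07% of all genes rose and 0.856% fell, with a median log2 fold change of 0.16 against -0.0083 over all genes tested. The gene that fell was Adcy1, the calcium-stimulated adenylyl cyclase of photoreceptors, which makes cyclic AMP. It was at 636, 652, 607 and 774 CPM at ZT13 and at 556, 614, 480 and 540 CPM at ZT17, with 1 library at ZT17 above the lowest at ZT13, and its log2 fold change was -0.29 (SE 0.07, adjusted p = 0.0174).

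Grk5, a G protein-coupled receptor kinase, had the largest fold among the 10 rising genes of smallest p that had a gene name, at least 3 CPM and no overlap between the times. It was at 13.8, 14.0, 12.6 and 13.4 CPM at ZT13 and at 15.9, 21.4, 22.3 and 24.8 CPM at ZT17, so that the libraries at ZT17 were both higher and more spread (log2 fold change 0.65, SE 0.10, adjusted p = 4.18e-05). The others of these 10 rose by 0.34 to 0.50 on the log2 scale. Beside Dip2b and Pde8b they were Tbl1x and Ncoa1, a subunit of a nuclear receptor corepressor complex and a nuclear receptor coactivator, Zdhhc5, a palmitoyltransferase, Fgf9, a growth factor, Sgtb, a cochaperone, Lgmn, a lysosomal protease, and E2f3, a transcription factor of the cell cycle. Zdhhc5 went from 290 ± 20.2 CPM (SD, n = 4) to 412 ± 34.1 and Ncoa1 from 323 ± 15.9 to 409 ± 34.8. Zdhhc5 shares its locus with Med19 on the opposite strand, and the strand setting of the counting is not given in the sources used here.

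Under the same conditions, the 10 rising genes of largest fold differed widely in level. Etv4, an ETS family transcription factor, was at 1.44, 1.70, 4.29 and 2.74 CPM at ZT13 and at 5.56, 6.15, 5.25 and 4.85 CPM at ZT17 (18 to 75 reads against 93 to 113), a log2 fold change of 1.06 (SE 0.24, adjusted p = 0.00949). The interferon regulatory factor Irf7 was at 36.6, 30.0, 33.3 and 40.9 CPM at ZT13 and at 43.7, 67.2, 62.0 and 63.4 CPM at ZT17 (0.75, SE 0.20, adjusted p = 0.0325), and it overlaps Phrf1 on the opposite strand. Pcp4l1, a small protein related to the calmodulin regulator PCP4, rose from 60.8 ± 7.06 to 100.1 ± 12.9 CPM (SD, n = 4; log2 fold change 0.72, adjusted p = 0.00308) and, unlike Irf7, passed in each of the 8 fits without 1 library. Of the rest of the 10 largest by this rule, Arhgdig, Igf2bp2, Phf23, Mmp17, Rpl13a and AI464131 rose by 0.63 to 0.68. Arhgdig overlaps Rgs11 on the opposite strand and did not pass with the GC content and length trends removed (adjusted p = 0.0507). Arhgdig and AI464131 each passed in 2 of the 8 fits without 1 library. Rpl13a, a ribosomal protein gene whose name is shared by many processed copies in the genome, was the 1 of 80 ribosomal protein genes tested that passed, a share near the 1.07% of all genes that rose.

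**Figure D2:**
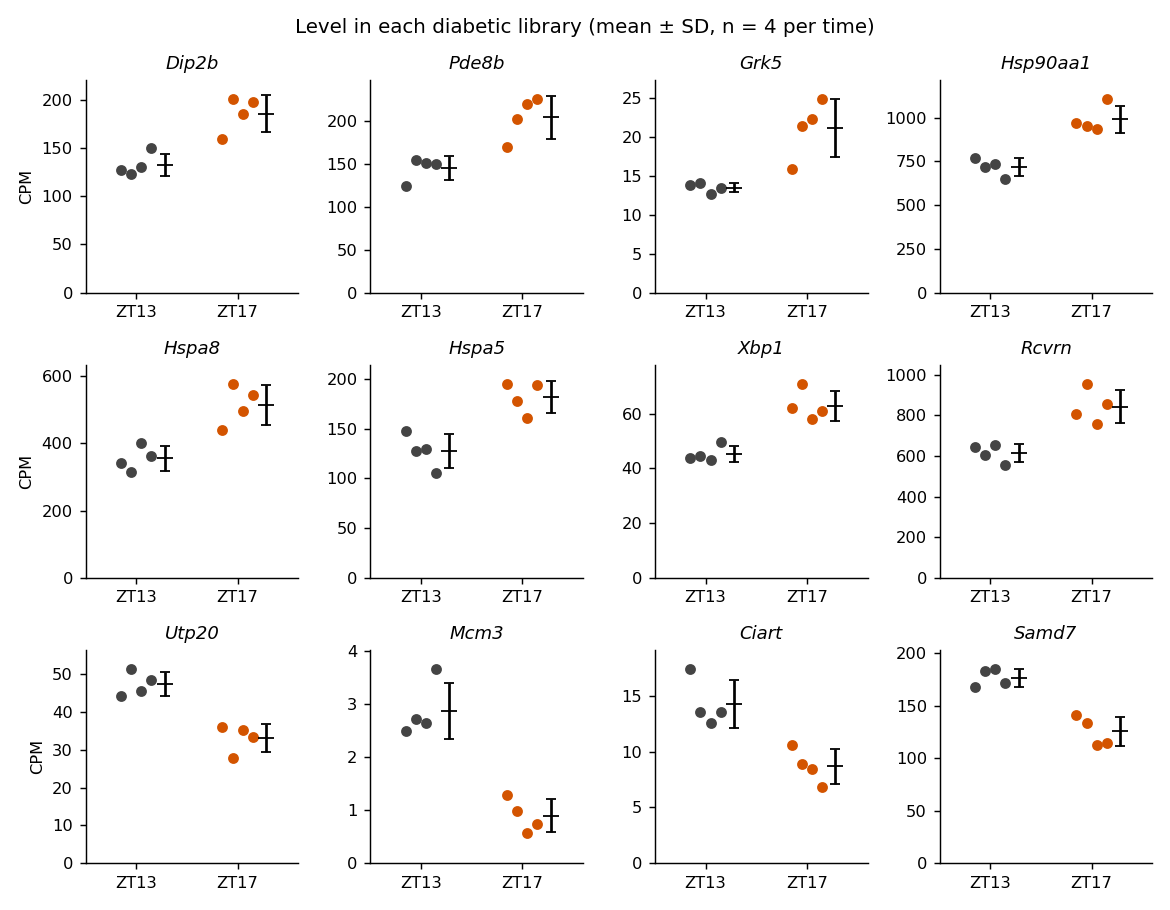
Level in CPM of 12 genes in each diabetic library (points, in the order of replicates 1, 3, 4 and 5), with the mean and SD of the 4 libraries beside them, at ZT13 in grey and ZT17 in orange. Each vertical axis starts at 0, and for all 12 genes the libraries of the 2 times do not overlap.

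Several chaperones of the cytosol rose. Of 25 heat shock genes tested 6 rose and none fell, where 1.07% of all genes rose, and the median log2 fold change of the 25 was 0.19. In 10 of the 25 every library at ZT17 was above every library at ZT13, as in 3.09% of all genes. Hsp90aa1, the inducible cytosolic HSP90, was at 769, 716, 735 and 647 CPM at ZT13 and at 968, 950, 937 and 1106 CPM at ZT17, and rose by 0.47 (SE 0.09, adjusted p = 0.00192). The constitutive HSP70 gene Hspa8 was at 340, 316, 402 and 364 CPM at ZT13 and at 440, 576, 496 and 545 CPM at ZT17 (0.53, SE 0.13, adjusted p = 0.021). Neither gene overlapped between the times.

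The stress-inducible HSP70 genes Hspa1a and Hspa1b are near-identical neighbours on chromosome 17, so that reads can be split between them and each value is uncertain. Hspa1a was at 23.2, 21.4, 24.4 and 18.8 CPM at ZT13 and at 30.8, 34.2, 28.6 and 29.6 CPM at ZT17 (0.49, SE 0.12, adjusted p = 0.024), and Hspa1b rose from 17.7 ± 1.40 to 26.1 ± 4.51 CPM (SD, n = 4). The cochaperones that carry clients between HSP70 and HSP90 rose too, Stip1 from 91.2 ± 13.7 to 127 ± 15.7 CPM (adjusted p = 0.0274) and Fkbp4 from 138 ± 12.7 to 178 ± 21.5 CPM (adjusted p = 0.0499). Hspa1a did not pass with the GC content and length trends removed (adjusted p = 0.072). Hspa1b, Stip1 and Fkbp4 were named after their values were seen, and Fkbp4 passed in 3 of the 8 fits without 1 library. The count of 6 was carried by several libraries, since it was 1 without replicate 3 at ZT13, without replicate 3 at ZT17 or without replicate 5 at ZT17, 2 without replicate 1 or replicate 5 at ZT13, and 7 without replicate 1 at ZT17. It was 1 without both replicate 5 at ZT13 and replicate 3 at ZT17, and 0 with the 8 libraries alone. 

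The list of endoplasmic reticulum chaperones and the unfolded protein response, which also holds its sensors and transcription factors, had members that rose and none that fell. Of 26 genes tested 5 rose and none fell, where 1.07% of all genes rose, with a median log2 fold change of 0.14 against -0.0083 over all genes. Hspa5, the HSP70 of the endoplasmic reticulum (BiP), was at 147, 128, 130 and 105 CPM at ZT13 and at 195, 177, 161 and 194 CPM at ZT17 (0.51, SE 0.12, adjusted p = 0.0165). Xbp1, the transcription factor of the unfolded protein response, was at 43.8, 44.6, 43.1 and 49.7 CPM at ZT13 and at 62.0, 70.7, 57.9 and 60.8 CPM at ZT17 (0.47, SE 0.10, adjusted p = 0.00678), without overlap for either gene. Counts per gene do not show whether the Xbp1 messenger was spliced to its active form. Manf, a secreted stress-response factor that shares bases with Rbm15b, rose from 21.8 ± 2.14 to 31.3 ± 3.69 CPM (adjusted p = 0.00896). The protein disulfide isomerase Pdia4 rose by 0.35 (adjusted p = 0.0421) and the chaperone Hyou1 by 0.30 (adjusted p = 0.0301), both named after their values were seen. Ddit3 (CHOP), in the list of ATF4 targets, was the 1 of 23 that passed, at 19.2, 18.7, 18.4 and 17.7 CPM at ZT13 and at 24.5, 30.5, 20.6 and 24.4 CPM at ZT17. Without replicate 3 at either time 1 gene of the endoplasmic reticulum list passed, and without replicate 5 at either time 2 did. None passed without both replicate 5 at ZT13 and replicate 3 at ZT17, nor with the 8 libraries alone.

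The windows from 250 bases before to 50 after the start of Hspa5 and Hspa1a are shown because each gene was among the members of its list that rose. Capitals mark the endoplasmic reticulum stress element (ERSE) in Hspa5, which begins 65 bases before the start, and the letters GAANNTTC, an inverted pair of heat shock units, in Hspa1a, which begin 104 bases before it. The sequences are from RefSeq (GRCm38.p6), 5′ to 3′ on the strand of the gene.
Hspa5, chr2:34771840-34772139, plus strand: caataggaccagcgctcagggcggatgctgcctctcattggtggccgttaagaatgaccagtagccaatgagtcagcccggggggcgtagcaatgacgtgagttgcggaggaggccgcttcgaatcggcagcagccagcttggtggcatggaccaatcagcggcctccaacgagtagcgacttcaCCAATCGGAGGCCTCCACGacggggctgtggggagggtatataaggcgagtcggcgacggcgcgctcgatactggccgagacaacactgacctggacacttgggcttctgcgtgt
Hspa1a, chr17:34972107-34972406, minus strand: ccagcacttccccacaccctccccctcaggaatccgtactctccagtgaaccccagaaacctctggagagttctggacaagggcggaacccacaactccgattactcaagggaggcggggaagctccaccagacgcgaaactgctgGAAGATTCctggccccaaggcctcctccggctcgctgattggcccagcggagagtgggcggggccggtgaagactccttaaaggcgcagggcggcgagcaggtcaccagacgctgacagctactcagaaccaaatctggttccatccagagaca
Searched on both strands, the stress element was in the window of 1 of the 3 genes with a window (Hspa5, Pdia4 and Xbp1) among the 5 that rose in the endoplasmic reticulum list, and in 0.119% of all 32851 windows. GAANNTTC was in 3 of the 4 rising heat shock genes with a window (Fkbp4, Hspa1a and Hspa1b, of which the last 2 are near-copies) and in 7.86% of all windows, and TTCNNGAA, the other arrangement of the pair, in 0 of the 4 and in 8.52% of all.

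The 10 falling genes of smallest p under the same rule had varied roles. Utp20, a factor of small ribosomal subunit assembly in the nucleolus, was at 44.3, 51.4, 45.5 and 48.6 CPM at ZT13 and at 35.9, 27.9, 35.4 and 33.3 CPM at ZT17, without overlap, and fell by 0.52 on the log2 scale (SE 0.09, adjusted p = 0.000373). Rbm19, another ribosome assembly factor, fell from 20.2 ± 1.67 to 14.2 ± 1.69 CPM (SD, n = 4; adjusted p = 0.00155). Topbp1, which activates the DNA damage checkpoint and replication origins, fell from 20.1 ± 1.48 to 14.6 ± 1.88 CPM, and Ino80c, a subunit of the INO80 chromatin remodeller, from 29.9 ± 2.95 to 21.4 ± 1.88 CPM (adjusted p = 0.00119 for both). The other genes of smallest p among the decreases were Ankrd44, Ispd (a glycosylation enzyme of dystroglycan), Kdm8, Tubgcp3 (a subunit of the gamma-tubulin complex), Gabpb2 and Samd7, with log2 fold changes from -0.56 to -0.27. All 10 passed in each of the 8 fits without 1 library.

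In the list of DNA replication and repair 4 of 40 genes tested fell and none rose, where 0.856% of all genes fell. The median log2 fold change was -0.12, and in 9 of the 40 every library at ZT17 was below every library at ZT13, as in 3.23% of all genes. Mcm3, a subunit of the replicative MCM helicase, had the largest decrease of all genes that passed. It was at 2.48, 2.72, 2.63 and 3.65 CPM at ZT13 and at 1.28, 0.98, 0.56 and 0.73 CPM at ZT17, which is 31 to 46 reads against 11 to 23 in the deeper libraries. The log2 fold change was -1.69 (SE 0.21, adjusted p = 1.12e-06), with no overlap. Brca2, a factor of homologous recombination, fell from 24.8 ± 4.60 to 14.6 ± 3.72 CPM (adjusted p = 0.0101) and Prim2, a primase subunit, from 12.8 ± 1.11 to 8.87 ± 0.46 CPM (adjusted p = 0.0027). The count was 3 to 6 without 1 library, 8 with the GC content and length trends removed, 2 without both replicate 5 at ZT13 and replicate 3 at ZT17, and 0 with the 8 libraries alone.

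Among the 10 largest decreases by the rule, Polq (the DNA polymerase of end joining), Ncapg2 (a condensin subunit), Rnaseh2b (a subunit of ribonuclease H2) and Piwil2 (a PIWI protein) fell by 0.72 to 0.83 on the log2 scale. Col19a1, a collagen gene, was at 17.4, 12.8, 12.0 and 8.55 CPM at ZT13 and at 8.24, 3.38, 4.38 and 3.70 CPM at ZT17 (log2 fold change -1.36, SE 0.26, adjusted p = 0.00193). Its highest library at ZT17 came close to its lowest at ZT13. Zfp934 and Sema3c, with log2 fold changes of -0.90 and -0.83, passed in 3 and 1 of the 8 fits without 1 library, and Zfp934 overlaps Zfp935 on the same strand.

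The window of Mcm3 is shown because it had the largest decrease, and that of Ciart because it was the 1 core clock gene that changed. Capitals mark the E2F-type letters TTTCCCGC (here on the other strand) and TTTGGCGC in Mcm3, which begin 19 and 38 bases after the start, and the E-box CACGTG, the letters bound by CLOCK and BMAL1, in Ciart, which occurs 3 times, beginning 116, 58 and 44 bases before the start. The source and orientation are those given above.
Mcm3, chr1:20820263-20820562, minus strand: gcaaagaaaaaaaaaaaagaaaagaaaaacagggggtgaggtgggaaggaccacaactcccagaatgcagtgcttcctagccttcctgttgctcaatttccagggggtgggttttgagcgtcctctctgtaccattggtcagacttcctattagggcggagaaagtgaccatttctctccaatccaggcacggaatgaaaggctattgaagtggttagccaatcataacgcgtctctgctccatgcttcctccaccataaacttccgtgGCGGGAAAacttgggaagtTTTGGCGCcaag
Ciart, chr3:95882179-95882478, minus strand: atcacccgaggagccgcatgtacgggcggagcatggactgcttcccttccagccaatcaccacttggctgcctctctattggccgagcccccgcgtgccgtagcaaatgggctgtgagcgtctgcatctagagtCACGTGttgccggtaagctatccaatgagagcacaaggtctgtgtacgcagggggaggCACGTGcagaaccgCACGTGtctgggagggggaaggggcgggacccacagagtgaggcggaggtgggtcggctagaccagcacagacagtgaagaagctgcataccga
TTTCCCGC was in both of the 2 falling replication and repair genes with a window (Mcm3 and Brca2) and in 1.07% of all windows, TTTGGCGC in Mcm3 and in 0.514% of all windows, and the E-box in 7.15% of all windows, on both strands.

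**Figure D3:**
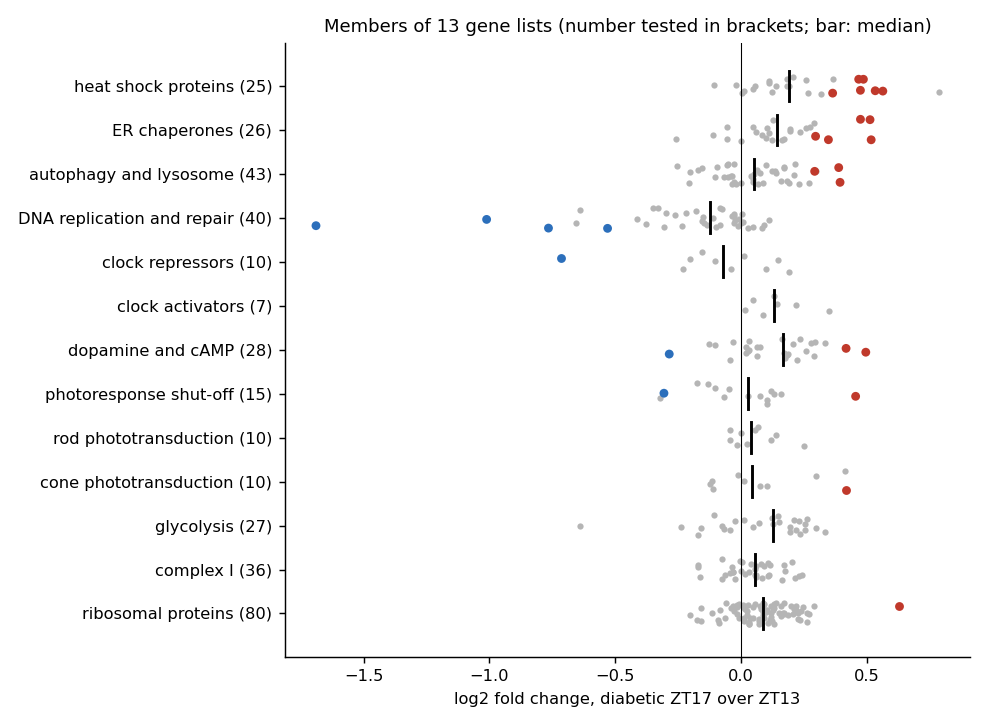
Log2 fold change between ZT17 and ZT13 in diabetic retinas (horizontal axis) of each gene tested in 13 gene lists, with the number tested in brackets, genes that rose in red, genes that fell in blue and all others in grey, and a bar at the median of the list. The coloured points of the heat shock and endoplasmic reticulum chaperone lists lie to the right of 0, and those of DNA replication and repair to the left.

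Of the core clock genes, Ciart passed the test. Of the 10 repressors 1 fell, where 0.856% of all genes fell, and none of the 7 activators or 4 output factors passed. Ciart, which represses the CLOCK and BMAL1 dimer, was at 17.4, 13.6, 12.5 and 13.5 CPM at ZT13 and at 10.6, 8.87, 8.46 and 6.78 CPM at ZT17, without overlap (log2 fold change -0.71, SE 0.16, adjusted p = 0.00939), and it overlaps C920021L13Rik on the opposite strand. Per1 had a log2 fold change of 0.011 (SE 0.17), Per2 of -0.10 (SE 0.14) and Per3 of -0.20 (SE 0.09). For Cry1 and Cry2 it was 0.19 (SE 0.09) and 0.10 (SE 0.08), for Nr1d1 and Nr1d2, which encode REV-ERB repressors, 0.14 (SE 0.17) and -0.23 (SE 0.12), and for Bhlhe40 and Bhlhe41 -0.16 (SE 0.12) and -0.040 (SE 0.07).

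Among the activators, Arntl had a log2 fold change of 0.14 (SE 0.08), Clock of 0.048 (SE 0.09), Npas2 of 0.35 (SE 0.19), Arntl2 of 0.013 (SE 0.18), and Rora and Rorb of 0.086 and 0.13 (SE 0.08 and 0.10). In the output group, Dbp, Tef and Hlf were at -0.27 (SE 0.13), -0.056 (SE 0.06) and 0.051 (SE 0.07), and Nfil3, which opposes them at the same DNA site, at 0.37 (SE 0.13, adjusted p = 0.131). The signs of Per1, Cry2, Nr1d1, Arntl2, Clock, Tef and Hlf changed with the choice of libraries or scaling.

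Of 6 genes known to be under clock control in the retina, a list the study itself chose, Plekhb1 rose and Adcy1 (above) fell, where 1.07% of all genes rose and 0.856% fell. Plekhb1, a pleckstrin homology protein of photoreceptors, was at 784, 732, 859 and 732 CPM at ZT13 and at 990, 1052, 979 and 1008 CPM at ZT17 (log2 fold change 0.37, SE 0.10, adjusted p = 0.0327), without overlap. Drd4, the dopamine receptor of photoreceptors that lowers cyclic AMP, was at 273, 246, 298 and 350 CPM at ZT13 and at 287, 337, 313 and 252 CPM at ZT17 (0.029, SE 0.15), with the libraries of both times interleaved. Cys1, Usp2 and Nr2e3 had log2 fold changes of 0.20 (SE 0.13), 0.22 (SE 0.14) and -0.085 (SE 0.10) and did not pass.

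The counts in the photoreceptor lists stand beside 1.92% of all genes called, a share at which a list this short may hold no call. None of 10 rod phototransduction genes passed (median log2 fold change 0.038), nor any of 34 outer segment and ciliary genes or 12 visual cycle genes. Among 15 genes of photoresponse shut-off 1 rose and 1 fell, where 1.07% of all genes rose and 0.856% fell. Rcvrn, the calcium sensor recoverin that restrains rhodopsin kinase in the dark, was at 643, 605, 656 and 557 CPM at ZT13 and at 806, 953, 760 and 854 CPM at ZT17 (0.45, SE 0.12, adjusted p = 0.0248), and it overlaps Glp2r on the opposite strand. Sag, the rod arrestin that quenches active rhodopsin, was at 2636, 2928, 2862 and 2703 CPM at ZT13 and at 2429, 2382, 2045 and 2139 CPM at ZT17 (-0.31, SE 0.08, adjusted p = 0.0419). Neither overlapped. The cone arrestin Arr3 went from 192 ± 12.8 to 153 ± 14.2 CPM and did not pass (adjusted p = 0.107).

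The short-wavelength cone opsin Opn1sw was at 266, 272, 281 and 249 CPM at ZT13 and at 313, 387, 329 and 396 CPM at ZT17 (0.42, SE 0.10, adjusted p = 0.021), and it overlaps Calu on the opposite strand. It was the 1 of 10 cone phototransduction genes that passed, where 1.07% of all genes rose. Stx3, the syntaxin of ribbon synapses, rose from 516 ± 57.2 to 613 ± 47.1 CPM (adjusted p = 0.026), and its lowest library at ZT17 lay below the highest at ZT13. In the list of rod bipolar and ON bipolar genes Car10 and Cabp5 rose by 0.26 and 0.25 (adjusted p = 0.0101 and 0.0388), 2 of 19, where 1.07% of all genes rose. Samd7, which with other polycomb proteins silences inappropriate genes in rods, was the 1 of 18 photoreceptor transcription regulators that passed, and fell, where 0.856% of all genes fell.

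For lists of this size, the counts in energy metabolism were near the 1.92% called over all genes. No gene passed among 27 of glycolysis (median log2 fold change 0.13), 36 of complex I, 37 of complexes III to V, 7 tested of the mitochondrial genome or 31 of the hypoxia response. The glycolytic gene nearest to the threshold was Aldoc, at 291 ± 24.6 CPM at ZT13 and 366 ± 51.3 at ZT17 (adjusted p = 0.0658). Of 31 genes of pyruvate dehydrogenase and the citric acid cycle 2 rose, where 1.07% of all genes did. They were Idh3a, a subunit of isocitrate dehydrogenase, which went from 81.9 ± 5.73 to 99.5 ± 7.98 CPM (adjusted p = 0.0197), and Cs, citrate synthase, at 137, 138, 139 and 136 CPM at ZT13 and 158, 183, 147 and 172 CPM at ZT17 (adjusted p = 0.0498). Cs passed in 2 of the 8 fits without 1 library. Lss, lanosterol synthase, was the 1 of 25 cholesterol genes that passed, and fell by 0.26.

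In the insulin and FOXO list 2 of 24 genes rose and in the autophagy and lysosome list 3 of 43, where 1.07% of all genes rose. Foxo4 was at 17.7, 16.2, 15.9 and 16.2 CPM at ZT13 and at 19.6, 21.4, 21.5 and 23.8 CPM at ZT17 (0.39, SE 0.08, adjusted p = 0.00308), and Foxo1 rose by 0.24 (adjusted p = 0.0369) with overlapping libraries. With the GC content and length trends removed Foxo1 did not pass (adjusted p = 0.061). The autophagy and lysosome genes were Gabarapl1, an ATG8 family member (0.39, adjusted p = 0.0343), Wipi1, which binds forming autophagosomes (0.29, adjusted p = 0.0134), and Tfe3, a transcription factor of lysosomal genes (0.39, adjusted p = 0.0384). Nfe2l2 (NRF2, of 23 antioxidant genes), Stat3 (of 14 reactive glia genes) and Hnrnpu (of 40 splicing genes) were each the only member of their list to pass, with log2 fold changes of 0.33, 0.28 and 0.29. Hnrnpu did not pass with those trends removed (adjusted p = 0.0798). No member passed among 33 immediate early genes, 25 glucocorticoid targets, 22 amacrine, 16 ganglion cell and 16 Muller glia genes, 14 microglial and 19 endothelial genes, 77 mitochondrial ribosomal proteins, 37 proteasome subunits, 25 genes of fatty acid oxidation and 20 of the mTOR pathway. Their medians lay between -0.0095 and 0.24. The log2 fold change was above 0 in 30 of the 33 immediate early genes, 21 of the 22 amacrine genes and 16 of the 16 ganglion cell genes, as in 9119 of all 18814 genes tested. Cirbp and Rbm3, the cold-inducible RNA-binding proteins, had log2 fold changes of -0.29 and -0.27 and did not pass (adjusted p = 0.0991 and 0.137).

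The same step in control retinas, measured in 10 other libraries, asks whether these changes belong to the night or to diabetes. There 609 genes passed (3.24%), 283 higher (1.5%) and 326 lower (1.73%), the 283 including 6 lens genes. Without 1 control library 107 to 728 genes rose and 84 to 764 fell, the lowest counts being without replicate 2 at ZT13 (107 and 107) or replicate 3 at ZT17 (109 and 84) and the highest without replicate 4 at ZT13. Of the 362 genes called in diabetic retinas 131 passed in control retinas too, all in the same direction, which is 36.2% of the diabetic and 21.5% of the control calls. The direction was the same in 356 of the 362 (98.3%), as it was in 70.2% of all genes tested, and with the GC content and length trends removed in 740 of 779 (95.0%, against 67.2% of all). Beside this stands that control libraries had a mean GC trend of -0.070 ± 0.16 (SD, n = 5) at ZT13 and 0.14 ± 0.26 at ZT17, where replicates 1 and 3 were at 0.36 and 0.47 and the other 3 between -0.088 and -0.018. Control replicate 3 at ZT17 also had 7.68% structural RNA and 0.66% mitochondrial reads. In the diabetic libraries the median GC trends were 0.0082 and 0.0068, and the higher mean at ZT17 came from replicate 3. Depth also differed with time in control libraries, with 15656408 to 19929725 counted reads at ZT17 against 9564862 to 16663555 at ZT13. The ZT17 libraries of diabetic retinas were deeper too (above), and the part of depth in the shared direction was not tested.

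**Figure D4:**
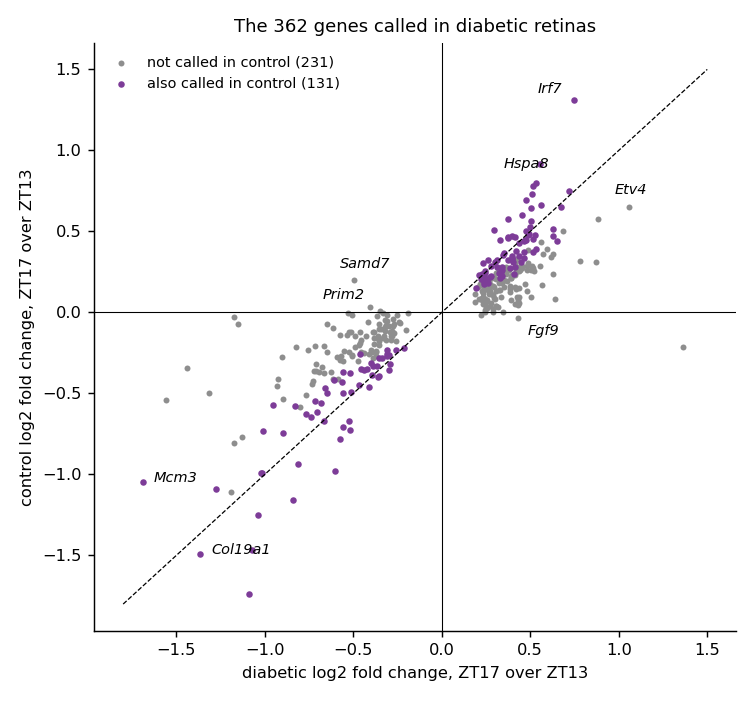
Log2 fold change between ZT17 and ZT13 of the 362 genes called in diabetic retinas, in diabetic (horizontal axis) and control retinas (vertical axis), 1 point per gene, with the 131 that also passed in control retinas in purple, the others in grey and a dashed line at equal change. Nearly all points lie in the 2 quadrants of equal direction, with Samd7 and Fgf9 among the 6 that do not.

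In control retinas 6 of 25 heat shock genes rose, Hsp90aa1, Hspa8 and Stip1 among them, and 10 of 26 genes of the endoplasmic reticulum list, where 1.5% of all genes rose. Hspa5 was at 150 ± 20.7 CPM (SD, n = 5) at ZT13 and 248 ± 46.3 at ZT17 in control retinas, a log2 fold change of 0.73 (SE 0.11) beside 0.51 (SE 0.12) in diabetic retinas, and Xbp1 rose by 0.69 (SE 0.09) beside 0.47 (SE 0.10). The difference between the genotypes did not pass for either (unadjusted p = 0.194 for Hspa5 and 0.124 for Xbp1). In glycolysis 8 of 27 genes rose in control retinas, where 1.5% of all genes rose, and none in diabetic retinas, where 1.07% did, with medians of 0.20 and 0.13. No glycolytic gene passed the test of the difference.

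The difference between the diabetic and the control change passed for 1 gene of 18814 (0.00532%), with 861 genes at an unadjusted p under 0.05. This gene was Samd7, on chromosome 3 (30746293 to 30767174, plus strand, GRCm38). In diabetic retinas it was at 168, 183, 185 and 171 CPM at ZT13 and at 141, 133, 113 and 115 CPM at ZT17, and fell by 0.49 (SE 0.09, adjusted p = 0.00193). In control retinas it was at 128, 121, 153, 169 and 164 CPM at ZT13 and at 175, 153, 190, 164 and 162 CPM at ZT17 (0.20, SE 0.08, adjusted p = 0.158), with overlapping libraries. The difference of the 2 changes was -0.69 (SE 0.13, adjusted p = 0.0198). It passed in 11 of the 18 fits without 1 library (adjusted p from 0.00499 to 0.165) and not with the 18 libraries alone, and the call was lost without replicate 4 or 5 of diabetic ZT17 (adjusted p = 0.165 and 0.152), replicate 3 or 4 of diabetic ZT13 (0.0571 and 0.0964), replicate 1 or 2 of control ZT13 (0.0977 and 0.0629) or replicate 3 of control ZT17 (0.0509). DESeq2 called Samd7 and the lens gene Crybb2, the latter named after its result was seen.

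The next smallest p-values of the difference belonged to Fgf9, Ypel2, Hnrnpdl and Prim2, none of which passed (adjusted p = 0.488 for Fgf9, 0.849 for Ypel2 and above for the others). Fgf9 was at 34.1, 37.9, 36.4 and 32.6 CPM at ZT13 and at 46.2, 42.9, 46.8 and 54.5 CPM at ZT17 in diabetic retinas, a log2 fold change of 0.43 (SE 0.08) beside -0.036 (SE 0.07) in control retinas. Prim2 fell by 0.53 (SE 0.11) in diabetic retinas and was at -0.0051 (SE 0.10) in control retinas. Hnrnpdl, an RNA-binding protein of the hnRNP D family, was at -0.097 (SE 0.07) beside -0.45 (SE 0.06). Drd4 did not rise over this step in diabetic retinas and rose by 0.63 (SE 0.13) in control retinas, a difference of -0.60 (SE 0.20, unadjusted p = 0.00419, which did not hold after adjustment).

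The steps before and after set these hours in the day of diabetic retinas. From ZT9 to ZT13, 30 genes passed (0.159%), 19 higher (0.101%) and 11 lower (0.0585%), and from ZT17 to ZT21, 2 (0.0106%), both lower, which were Camk1d and Etnppl and were named after their values were seen. These steps share the ZT13 and ZT17 libraries with the step described here. Dip2b was between 116 and 133 CPM from ZT1 to ZT13, at 186 ± 19.1 CPM at ZT17 and at 171 ± 12.2 at ZT21. Mcm3 went from 2.32 ± 0.55 CPM at ZT9 to 2.87 ± 0.53 at ZT13, to 0.89 ± 0.31 at ZT17 and to 1.22 ± 0.24 at ZT21. Hspa5 had its lowest mean at ZT13, 127 ± 17.3 CPM, and its highest at ZT21, 189 ± 15.8 CPM, next to 182 ± 16.1 at ZT17.

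Some genes had moved before ZT13. Drd4 rose from 154 ± 13.5 CPM at ZT9 to 292 ± 44.3 at ZT13 in diabetic retinas (log2 fold change 0.92, adjusted p = 0.000206) and was at 298 ± 36.5 at ZT17, while control retinas were at 162 ± 26.0, 224 ± 64.2 and 348 ± 60.0 at these times. The clock activator gene Rorb rose by 0.47 from ZT9 to ZT13 (adjusted p = 0.0155), and its log2 fold change from ZT13 to ZT17 was 0.13 (SE 0.10, adjusted p = 0.572). Irf7 rose in both steps, from 13.0 ± 1.85 CPM at ZT9 to 35.2 ± 4.67 at ZT13 (1.44, adjusted p = 5.74e-05) and to 59.1 ± 10.5 at ZT17.

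**Figure D5:**
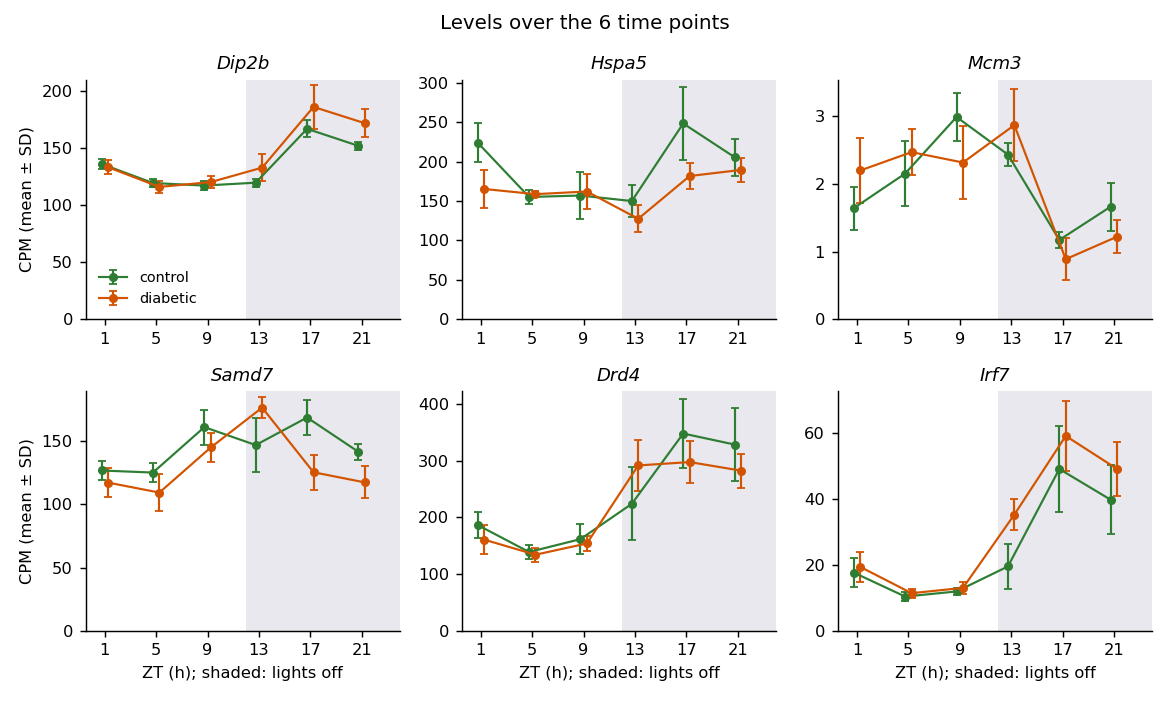
Mean level in CPM with SD over the 4 to 6 libraries of each time point (horizontal axis, ZT in hours, lights off shaded) for 6 genes, control in green and diabetic in orange. Dip2b steps up and Mcm3 down between ZT13 and ZT17 in both genotypes, Samd7 goes from 177 to 125 CPM in diabetic and from 147 to 169 CPM in control retinas, and Drd4 and Irf7 are above their ZT9 level by ZT13.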

How the data were processed

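Retinal RNA was sequenced in 58 libraries of diabetic and control mice at 6 times of day, and 8 libraries form the comparison described here. Per the labels and methods, the authors made the deposited counts by aligning paired-end reads of ribosomal RNA-depleted total RNA with STAR 2.7.4a to GRCm38.p5 and counting raw reads per gene with HTSeq 0.11.1. The strand setting of the counting is not given in the sources used here, so values of overlapping genes are uncertain. Groups came from the sample labels.

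From these counts, genes were filtered with filterByExpr, which left 18814 of 52459, scaled by TMM and fitted with edgeR 4.0.16 in R 4.3.3, using the robust quasi-likelihood test over 12 groups of genotype and time, with Benjamini-Hochberg adjustment over all genes tested. CPM are TMM-scaled. DESeq2 1.42.0, other scalings and filters, the 8 libraries alone, a replicate block, GC and length offsets and leaving out each library were the alternatives. The expected share of recovery was checked on simulated counts, in which 60% of genes changed 1.5-fold and 86% of those changed 2-fold were called, with 9 false calls among 18814 genes. These counts were drawn gene by gene, without the GC trends or structural RNA shifts of single libraries. The 9 false calls are therefore no estimate for the real libraries. Folds below 1.5 were not simulated, while the median changes of the genes called were smaller. Coordinates are from Gencode M21 (48082 symbols matched), and promoter windows from RefSeq.

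The genes named were, among those past the threshold with at least 3 CPM, no overlap and a gene name, the 10 rising and 10 falling with the smallest p and with the largest fold. To these were added all clock genes, up to 3 genes per list by p, and the 5 genes with the smallest p of the difference. Results for 3 genes are not reported here. Members and lists were chosen with earlier results of these data known. Every p-value measures the spread between libraries, estimated from all 58 unless said otherwise. At 11335814 to 20301393 counts per diabetic library, genes of few reads, such as Mcm3, are the least precise.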

Additional observations from a re-analysis of the deposited data

Results flagged for a closer look

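Of 240 groups of 4 libraries examined for a value far from the other 3, 12 had one (5.0%), and chance gives about 1 in 20. In the diabetic ZT13 group, Pde8b was lowest in replicate 1 (124 CPM, next 150), Igf2bp2 lowest in replicate 3 (7.23 CPM, next 9.84), and Hlf (250.1 CPM, next 309) and Nr2e3 (298 CPM, next 371) lowest in replicate 5. In the diabetic ZT17 group, Tbl1x was highest in replicate 5 (153 CPM, next 134), Bhlhe41 lowest in replicate 5 (173 CPM, next 193), Rora lowest in replicate 3 (439 CPM, next 524) and Ypel2 lowest in replicate 4 (232 CPM, next 240.1).

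Among library measures, replicate 3 at ZT17 had the highest structural RNA share (8.04%, next 5.14%) and the highest GC trend (0.42 log2 units per 10 percentage points, next 0.022). The summed lens markers were highest in replicate 4 at ZT13 (68.4 CPM, next 8.88) and lowest in replicate 1 at ZT17 (1.89 CPM, next 3.05).

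The change of Samd7 differed between diabetic and control retinas by -0.69 on the log2 scale (edgeR's quasi-likelihood test, adjusted p = 0.0198).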

How the results depend on the processing

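The counts of calls moved with the libraries and with the estimate of the spread. All 362 genes kept their direction in each fit without 1 diabetic library, which their choice from the same libraries all but fixed in advance. Without 1 library, 61 to 361 genes rose and 50 to 249 fell in diabetic retinas, 107 to 728 rose and 84 to 764 fell in control retinas, and 6 to 37 changed from ZT9 to ZT13, 1 to 2 from ZT17 to ZT21 and 0 to 1 in the difference between genotypes. The lists gave 1 to 7 heat shock genes, 1 to 5 genes of the endoplasmic reticulum list and 3 to 6 replication and repair genes. Of the 72 named genes that passed, 30 passed in every such fit. With replicate 5 at ZT13 and replicate 3 at ZT17 both left out, 17 genes rose, 21 fell and 6 changed from ZT9 to ZT13, and the lists gave 1, 0 and 2.

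Without the filter on low counts, where more genes were tested, 105 rose and 70 fell (control 174 and 147), and the heat shock and endoplasmic reticulum lists gave 3 each. With only the libraries of the groups compared, 0 rose and 0 fell (control 37 and 25), 0 changed from ZT17 to ZT21 or in the difference, and each of the lists gave 0. Calls above 0.32 on the log2 scale were 125 higher (control 163). DESeq2 gave 66 genes from ZT9 to ZT13 and 2 in the difference. GC and length offsets gave 336 higher and 443 lower, 75 from ZT9 to ZT13 and 8 replication and repair genes. The cause of these differences was not tested.

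What the replicate numbers stand for is not given in the sources used here. Between diabetic ZT13 and ZT17, deviations from the group means of same-numbered libraries correlated at 0.32, -0.37, 0.14 and 0.048 for numbers 1, 3, 4 and 5. So few correlations cannot show whether same-numbered libraries share an effect. A replicate block gave 363 higher and 265 lower (control 802 and 665), 61 from ZT9 to ZT13 and 7 replication and repair genes. The block with only the groups compared gave 0 and 3 (control 16 and 11), 87 from ZT9 to ZT13, 7 from ZT17 to ZT21, 0 in the difference and 0 in each list. The block with GC and length offsets gave 591 and 619 (control 607 and 711), 116, 7 and 9 replication and repair genes.

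Of the 102 named genes, signs turned for 8, none of which passed. Over the fits without 1 library the log2 fold change ranged from -0.10 to 0.086 for Per1, -0.0046 to 0.17 for Cry2, -0.12 to 0.094 for Arntl2, -0.033 to 0.11 for Clock, -0.033 to 0.081 for Hlf, -0.10 to 0.0042 for Tef and -0.048 to 0.12 for Drd4. Per1 was at -0.019 with upper-quartile scaling, -0.12 with GC and length offsets with or without the block, -0.056 without both libraries and -0.10 without replicate 3 at ZT17, where Cry2 was at -0.0046. Drd4 was at -0.0020 with upper-quartile scaling, -0.064 with the offsets, -0.059 with offsets and block and -0.048 without replicate 3 at ZT13. Arntl2 was at -0.014 with upper-quartile scaling and -0.12 without replicate 4 at ZT17. Without replicate 5 at ZT13, Clock was at -0.033, Tef at 0.0042 and Hlf at -0.033, and without both libraries Hlf was at -0.025 and Nr1d1 at -0.074.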
